A study of Mus musculus with 2 samples.

Results

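Malat1, Neat1, Kcnq1ot1 and Miat are long noncoding RNAs that stay in the nucleus, and they were followed by name in the control RNA-Seq of WT and ΔM macrophages. Of these 4 names, 3 were found as gene symbols among the 37451 genes of the deposited table, namely *Malat1*, *Neat1* and *Miat*. No row carried the symbol *Kcnq1ot1*, and this RNA was not analysed here. The libraries were made as controls for a map of the RNA contacts of tristetraprolin (TTP), a protein that binds AU-rich sequences and promotes the decay of many inflammatory mRNAs. Bone marrow-derived macrophages (BMDMs) were grown with CSF-1 from L929 cells from the marrow of 7- to 9-week-old C57BL/6 littermates. WT animals carried intact TTP, and in ΔM animals the floxed TTP gene *Zfp36* was deleted by LysMCre, a Cre recombinase driven from the lysozyme M locus in myeloid cells. Cells of both genotypes were kept in 100 µM 4-thiouridine (4sU), a nucleoside used to label RNA, over 16 h. LPS, a bacterial cell wall component, was then given at 10 ng/ml for 6 h according to the treatment protocol. The sample titles carry a 7 after LPS that the labels do not explain. Total RNA was depleted of rRNA, so that transcripts without a poly(A) tail were retained. There was 1 library per genotype, so that no difference has a replicate check, no p-value is given, and the number of animals behind a library is not given in the sources used here.

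Malat1 is an abundant RNA of nuclear speckles, the bodies that store splicing factors. Neat1 is the architectural RNA of paraspeckles, bodies that form around its long isoform and hold RNA-binding proteins. In place of a poly(A) tail, Malat1 and the long isoform of Neat1 are cut at their 3′ end by RNase P next to a tRNA-like structure, and the end is protected by a triple helix in which a U-rich motif pairs with a genomically encoded A-rich tract. Kcnq1ot1 is transcribed from the paternal allele within *Kcnq1* and silences neighbouring imprinted genes. Miat is a nuclear RNA known from the nervous system and heart that binds splicing factors such as SF1 and QKI.

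The sequences of the 3′ ends are shown because they are what *Malat1* and *Neat1* share apart from their position and nuclear location. They were read from the longest annotated transcript on NCBIM37 (mm9), with T for U. Capitals mark the U-rich motif, TTTGCTTTT, and the core of the A-rich tract, AAAGCAAAA, both searched on the sense strand.
Malat1 U-rich motif, chr19:5796008-5796036, minus strand: tttctcaggtTTTGCTTTTtggcctttcc
Neat1 U-rich motif, chr19:5824741-5824769, minus strand: gcgctcaggtTTTGCTTTTcacctttgtc
Malat1 A-rich tract, chr19:5795972-5796000, minus strand: taaaaaaaaaAAAGCAAAAgacgctggtg
Neat1 A-rich tract, chr19:5824708-5824726, minus strand: tgagcaggaaAAAGCAAAA
The U-rich motif lay in a stretch of 16 nt that was identical in the 2 RNAs, and the A-rich core in one of 11 nt. The distance between the 2 motifs was 27 nt in *Malat1* and 34 nt in *Neat1*. In *Neat1* the A-rich tract was the last sequence of the annotated transcript, whereas 292 nt followed it in *Malat1*. Both motifs in this order within the last 400 nt were present in 2 of the 3488 annotated long noncoding transcripts of at least 400 nt (0.0573%), and these were *Malat1* and *Neat1*. They were also present in 2 of 21686 protein-coding transcripts. The motifs were chosen because they are known from these RNAs, so that the count is a description. *Miat* did not hold the pair in this window.

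The targeted gene *Zfp36* had 65.3 FPKM (fragments per kilobase of exon, relative to all mapped fragments) in the WT library and 16.7 FPKM in the ΔM library. Its log2 ratio of ΔM to WT, calculated like all log2 ratios below after adding 1 FPKM to both values, was -1.90. An added FPKM makes the ratio of weakly expressed genes smaller. The steps between low FPKMs gave approximate depths of 36800000 fragments in WT and 32600000 in ΔM, with a mean fragment length of 200 nt. Of 9 macrophage marker names, 8 were found, and they ranged from 2.15 (*Mertk*) to 2481 FPKM (*Lyz2*) in WT and from 3.48 to 1356 FPKM in ΔM. The summed level of these markers was 4001 FPKM in WT and 2864 FPKM in ΔM, and *Lyz2*, whose locus carries the Cre, made up most of that difference. Markers of neutrophils, T cells, B cells, dendritic cells, erythroid cells, fibroblasts and endothelium were at 1.03 FPKM (*Cd4*) or below in both libraries, and *Cd3e*, *Ly6g* and *Elane* were at 0 in both. The libraries also differed in *Xist*, the long noncoding RNA that coats the inactive X chromosome, which was at 1.68 FPKM in WT and listed at 0.00 in ΔM. The Y-linked genes *Eif2s3y* (5.99 and 8.30 FPKM), *Uty* (3.77 and 8.96 FPKM), *Ddx3y* (1.55 and 2.33 FPKM) and *Kdm5d* (1.06 and 1.42 FPKM) were detected in WT and ΔM, respectively. These Y-linked genes were looked up after the value of *Xist* had been seen. The sex of the animals is not given in the labels, and this difference and the genotype cannot be told apart in any value below.

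*Malat1* (ENSMUSG00000092341) lies on chr19:5795690-5802671, on the minus strand, and is annotated as a processed transcript. Its longest isoform is a single exon of 6982 nt, and 4 shorter spliced isoforms lie at either end of it. *Malat1* had 84.1 FPKM in the WT library and 127 FPKM in the ΔM library. The level in ΔM was thus 1.52 times that in WT, a log2 ratio of 0.59. More cells with the RNA and more RNA per cell cannot be told apart in such bulk samples. From counting alone, the 95% Poisson interval of *Malat1* was 79.8 to 88.6 FPKM in WT and 122 to 133 FPKM in ΔM. The 95% exact binomial interval of the ratio was 1.41 to 1.62. These intervals rest on the median isoform of 656 nt, for which the values equal about 1415 and 1899 fragments. If all fragments came from the full-length exon, the values would equal about 20995 and 28180 fragments and the interval of the ratio would be 1.49 to 1.54. The intervals of the 2 libraries did not overlap, but they leave out the spread between animals and cultures, which was not measured.

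In level, *Malat1* was among the most abundant RNAs of its class. It ranked 5th in WT and 4th in ΔM of the 3690 annotated long noncoding genes, and it was above 94.3% and 96.4% of the 8047 protein-coding genes that averaged 1 FPKM or more and had a transcript of at least 300 nt. Its level was 13.2 times the median of these coding genes in WT and 20.3 times in ΔM. By mean FPKM, the long noncoding gene directly above it was *Gm11626* (141 FPKM in WT and 110 FPKM in ΔM) and the one directly below it was *Gm17300* (56.8 and 76.4 FPKM). The log2 ratios of these neighbours in level were -0.35 and 0.42, so that *Malat1* had the highest ratio of the 3.

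*Neat1* (ENSMUSG00000092274) lies on chr19:5824708-5845478, also on the minus strand and 22036 nt upstream of *Malat1*. Its long isoform is a single exon of 20771 nt, and the short isoform of 3004 nt, or 14.5% of the length of the long one, lies at its 5′ end. *Neat1* had 3.39 FPKM in the WT library and 5.08 FPKM in the ΔM library. The level in ΔM was 1.5 times that in WT, with a log2 ratio of 0.47. Counting intervals were 2.96 to 3.86 FPKM in WT and 4.52 to 5.69 FPKM in ΔM. They rest on about 227 and 301 fragments at the median isoform length of 2017 nt. This length lies midway between isoforms of 1030 and 3004 nt and is not that of an annotated isoform. If all fragments came from the long isoform, the values would equal about 2566 and 3407 fragments. At the median length the interval of the ratio was 1.26 to 1.79. The deposited table has 1 value per gene, so that the long isoform, which forms paraspeckles, and the short isoform were not separated.

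*Neat1* was a moderately expressed gene in both libraries. It ranked 61st in WT and 43rd in ΔM among the long noncoding genes, and it was above 33.1% and 44.5% of the coding genes, so that most coding genes were above it. The long noncoding genes nearest in mean FPKM were *2700023E23Rik* (4.02 FPKM in WT and 4.83 FPKM in ΔM) and *Gm16541* (4.19 and 3.58 FPKM). Their log2 ratios were 0.22 and -0.18, compared to 0.47 for *Neat1*.

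*Malat1* and *Neat1* differed in level and had nearly the same ratio. *Malat1* was 24.8 times as abundant as *Neat1* per kilobase in WT and 25.1 times in ΔM. Without an added FPKM their log2 ratios of ΔM to WT were 0.60 and 0.58, and the interval of the *Malat1* ratio lay within that of *Neat1*. After adding 1 FPKM to both values they were 0.59 and 0.47, further apart because the added FPKM is a larger part of the *Neat1* value.

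*Miat* (ENSMUSG00000086878) is a lincRNA on chr5:112642248-112657968, minus strand, with a single annotated isoform of 7 exons and 8760 nt. *Miat* was listed at 0.01 FPKM in both libraries. At this length 1 fragment equals 0.00317 FPKM in WT and 0.00358 FPKM in ΔM, so that 2 to 4 fragments were behind each value. Counting intervals extend up to 0.0325 FPKM in WT and 0.0367 FPKM in ΔM, and that of the ratio spans 0.0511 to 24.96. A difference in *Miat* within this interval was therefore not detectable at this depth. *Miat* was 1 of 194 long noncoding genes with a mean of 0.01 FPKM, next to it in the ordered list *Gm9530* (0.01 and 0.01 FPKM) and *Mirg* (0.00 and 0.02 FPKM).

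**Figure D1:**
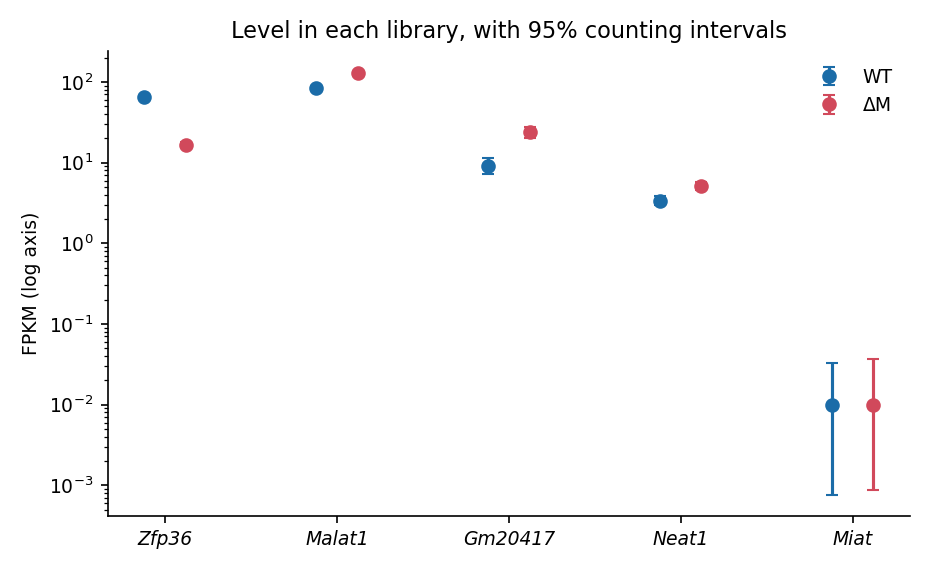
FPKM of *Zfp36*, *Malat1*, *Gm20417*, *Neat1* and *Miat* in the WT library (blue) and the ΔM library (red) on a log axis, 1 point per library. Bars are 95% counting intervals, which are smaller than the points for *Zfp36* and *Malat1*. *Malat1* and *Neat1* are higher in ΔM, *Zfp36* is lower, and both values of *Miat* are 0.01 FPKM.

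The ratios of the members were read against all genes. Of 10765 genes averaging 1 FPKM or more, 613 were at least 2-fold higher in ΔM (5.69%) and 389 at least 2-fold lower (3.61%), and the median log2 ratio was 0.03. *Malat1* and *Neat1* passed the minimum of 1 FPKM, and 0 of these 2 members were past 2-fold in either direction. *Miat* was below the minimum in both libraries, so that it entered none of these counts. The log2 ratio of *Malat1* was above that of 89.1% of the 10765 genes, and that of *Neat1* above 85.4%.

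Most of the genes past 2-fold had no annotated transcript of at least 300 nt, and FPKMs are unreliable for genes near or below the fragment length. Among the 8941 genes with a transcript of at least 300 nt, 100 were at least 2-fold higher (1.12%) and 111 at least 2-fold lower in ΔM (1.24%), with a median of 0.01 and the central 90% between -0.59 and 0.58. *Malat1* was above 95.3% of these genes and *Neat1* above 91.98%. In this order *Malat1* ranked 417th and *Neat1* 717th from the highest ratio. Among the 3191 of these genes averaging 10 FPKM or more, a minimum chosen after the values had been seen, *Malat1* was above 97.0%.

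Small noncoding RNAs of the nucleus had medians above 0, with a wide spread. The median log2 ratio was 0.62 over 801 snRNA genes and 0.39 over 480 snoRNA genes averaging 1 FPKM or more. These classes were inspected after their values had been seen, they are mostly near or below the fragment length, and their part in the values of *Malat1* and *Neat1* was not tested.

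**Figure D2:**
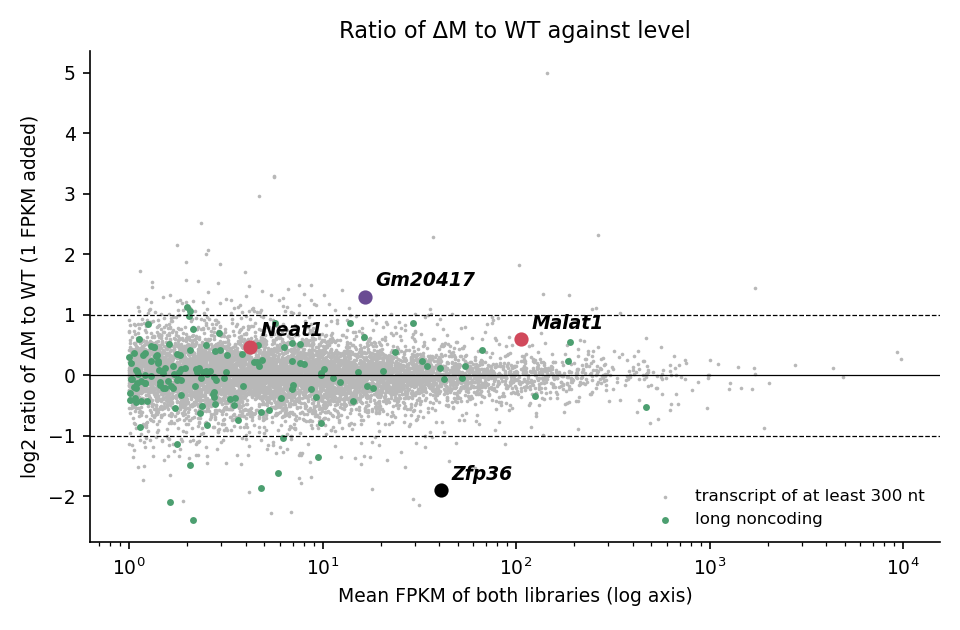
Log2 ratio of ΔM to WT after adding 1 FPKM (vertical) against the mean FPKM of both libraries (horizontal, log axis) for 8941 genes with a transcript of at least 300 nt, with 151 long noncoding genes in green. Dashed lines mark 2-fold. *Malat1* and *Neat1* (red) lie between 0 and the upper line, and *Gm20417* (purple) lies above it.

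Among long noncoding genes, 151 averaged 1 FPKM or more, and 3 of them were at least 2-fold higher (1.99%) and 8 at least 2-fold lower in ΔM (5.3%). Their median log2 ratio was 0.03. *Malat1* was the 13th and *Neat1* the 22nd in this ranking. Both belong to the 13 genes of this class whose longest transcript is a single exon, and within these they had the 2 highest ratios. The other 11 single-exon genes lay between -0.23 (*Gm8464*) and 0.39 (*Cd63-ps*), with a median of 0.08. The 138 spliced long noncoding genes had a median of 0.01. Among coding genes with a transcript of at least 300 nt, 229 single-exon genes had a median of 0.08 and 7818 spliced genes one of -0.01. Of these coding genes, 61.6% of the single-exon and 49.2% of the spliced ones were higher in ΔM. Higher ratios in single-exon genes were thus not limited to long noncoding genes, and their part in the values of *Malat1* and *Neat1* was not tested. This grouping by exons was made after the values had been seen.

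The highest ratio of the 151 long noncoding genes was that of *Gm20417* (ENSMUSG00000092267), a transcript of 425 nt on the plus strand at chr19:5797562-5798549. Both of its 2 exons, all 425 nt, lie within the single exon of *Malat1* on the opposite strand. *Gm20417* had 9.12 FPKM in the WT library and 23.9 FPKM in the ΔM library, with a log2 ratio of 1.30. Counting intervals were 7.18 to 11.4 FPKM and 20.5 to 27.7 FPKM, and the ratio of 2.62 had an interval of 1.99 to 3.47. That interval lay above the interval of the *Malat1* ratio. The level of *Malat1* was 9.22 times that of *Gm20417* in WT and 5.34 times in ΔM. Whether counting used the strand is not given in the sources used here, and without strand the fragments of *Gm20417* and *Malat1* cannot be told apart.

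The genomic neighbours of *Malat1* and *Neat1* were described in the same way. Within 100 kb of either gene, 10 of the protein-coding genes reported here averaged 1 FPKM or more. Of these, 4 had a log2 ratio above 0 and 0 were past 2-fold (background 1.12% higher and 1.24% lower), with a median of -0.07 and a range from -0.62 to 0.47. The nearest such gene upstream of *Neat1*, 4.22 kb from it, *Frmd8*, had 40.7 FPKM in the WT library and 45.2 FPKM in the ΔM library (log2 ratio 0.15). *Slc25a45*, 32.3 kb from *Neat1* and named after its values were seen, was at 20.1 and 28.2 FPKM and had the highest ratio of the coding neighbours, 0.47. The ratio of *Malat1* was above all 10 of these coding neighbours, and above 95.5% of the 8047 coding genes with a transcript of at least 300 nt. That of *Neat1* was equal to *Slc25a45* to the second decimal, and without an added FPKM the 2 were 0.58 and 0.49.

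*Miat* had 2 neighbours averaging 1 FPKM or more within 100 kb, both upstream. *Tpst2*, a protein-tyrosine sulfotransferase 47.7 kb away, had 33.9 FPKM in the WT library and 48.6 FPKM in the ΔM library (log2 ratio 0.51). Thus, the gene nearest to *Miat* that passed the minimum was well expressed, and *Miat* itself was not.

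**Figure D3:**
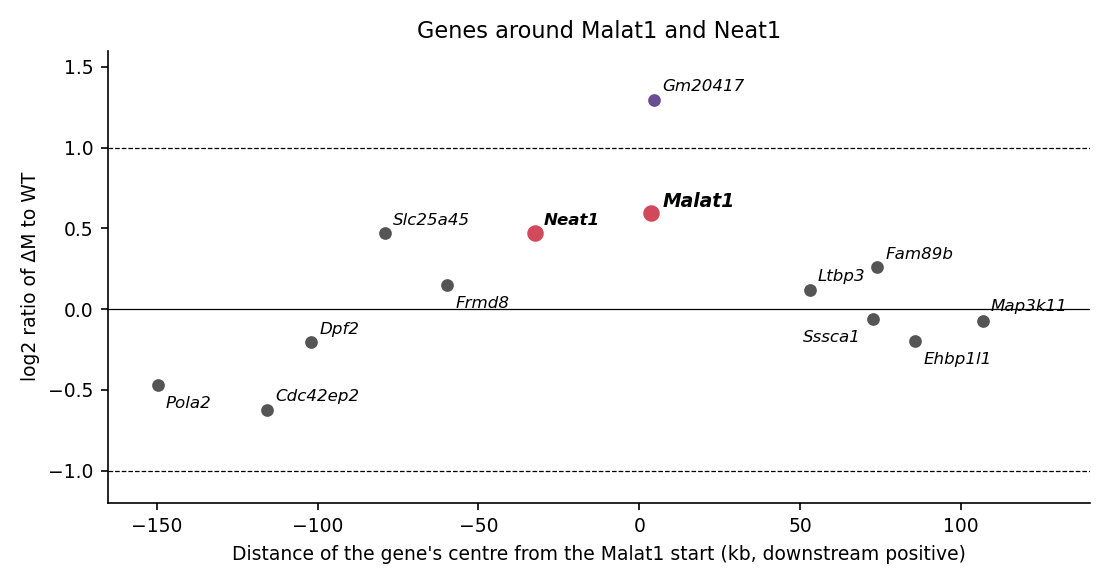
Log2 ratio of ΔM to WT (vertical) for the reported genes averaging 1 FPKM or more within 100 kb of *Malat1* or *Neat1*, by the distance of the gene's centre from the *Malat1* start in kb (horizontal). *Malat1* and *Neat1* are red, *Gm20417* is purple, and dashed lines mark 2-fold. *Gm20417* is the single point above 2-fold, and the coding genes lie between -0.62 and 0.47.

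Proteins that work with these RNAs were described from lists of names. The list of paraspeckle proteins is reported in part, so that no count past 2-fold is given for it. Of the 13 reported genes, 11 averaged 1 FPKM or more, and their median log2 ratio was -0.06, beside 0.03 over all genes tested and 0.47 for *Neat1*. The 3 with the highest level in WT were *Dazap1* (28.4 FPKM in WT and 21.0 FPKM in ΔM), *Hnrnpk* (21.9 and 21.0 FPKM), which regulates the choice between Neat1 isoforms, and *Sfpq* (21.3 and 18.8 FPKM), which is required for paraspeckles. The ratios of the 11 genes ranged from -0.42 to 0.50, and 3 were above 0. The highest was that of *Taf15* (5.77 and 8.60 FPKM), named as the end of the range, which was slightly above *Neat1*.

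All 12 nuclear speckle proteins of the list averaged 1 FPKM or more. That 0 of them were past 2-fold in either direction is near the background of 1.12% higher and 1.24% lower among genes with a transcript of at least 300 nt, and the same holds for the smaller lists described next. Their log2 ratios ranged from -0.30 to 0.16 with a median of -0.12, and 2 were above 0. *Acin1* had 46.2 FPKM in the WT library and 45.9 FPKM in the ΔM library. *Sf3b1*, a subunit of the U2 snRNP, was at 20.6 and 20.0 FPKM. *Son*, a scaffold of speckles, was at 17.5 and 19.8 FPKM and had the highest ratio of this list. All 12 ratios were below that of *Malat1*, as were those of 95.5% of coding genes with a transcript of at least 300 nt.

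Genes that process or protect the 3′ ends of *Malat1* and *Neat1*, mostly subunits of RNase P and the tRNA 3′ endonuclease *Elac2*, were found for 12 of 13 names. Of the 7 averaging 1 FPKM or more, 0 were past 2-fold in either direction (background 1.12% higher and 1.24% lower) and the median log2 ratio was 0.04. *Rpp21* (20.4 FPKM in WT and 20.9 FPKM in ΔM), *Pop4* (12.8 and 14.2 FPKM) and *Pop5* (10.4 and 4.89 FPKM) were the most abundant. *Pop5* had the lowest ratio, -0.95, just inside 2-fold once 1 FPKM was added to both values. Without the added FPKM, the 2 values of *Pop5* were more than 2-fold apart.

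For *Kcnq1ot1*, the surrounding genes can be described. *Kcnq1*, its host gene on the opposite strand, had 0.02 FPKM in the WT library and 0.01 FPKM in the ΔM library. Of 11 genes of this imprinted domain, 5 averaged 1 FPKM or more and 0 were past 2-fold in either direction (background 1.12% higher and 1.24% lower), with a median of -0.36 and a range from -0.42 to 0.78. *Cd81* (56.7 and 43.9 FPKM), *Nap1l4* (13.2 and 9.76 FPKM) and *Cdkn1c*, a cell cycle inhibitor (2.34 and 1.49 FPKM), were the highest in WT, and all 3 were lower in ΔM. *Tspan32*, named after its values were seen, was higher in ΔM, with 0.57 and 1.69 FPKM and the highest ratio of the 5. It passed the minimum through its ΔM value, and without the added FPKM it was past 2-fold. *Slc22a18* (1.25 and 0.28 FPKM), also named after its values were seen, was below the minimum mean and entered no count. Without the added FPKM it was more than 2-fold lower in ΔM. Of 5 chromatin factors that act with silencing RNAs, 0 were past 2-fold in either direction (background 1.12% higher and 1.24% lower), and the median was -0.06 with a range from -0.55 to 0.53. The histone methyltransferase *Ehmt2* was at 59.4 and 61.9 FPKM, and the Polycomb subunits *Eed* (7.55 and 7.18 FPKM) and *Suz12* (5.26 and 3.28 FPKM) were lower. The highest ratio was that of *Dnmt1* (1.12 and 2.06 FPKM), a DNA methyltransferase named here as the end of the range.

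Of the splicing factors that bind Miat, *Sf1* and *Qk* were well expressed while *Miat* had 2 to 4 fragments. *Sf1* had 31.0 FPKM in the WT library and 35.8 FPKM in the ΔM library, and the longer of the 2 genes named *Qk* was at 18.1 and 15.1 FPKM. *Celf3*, a neuronal factor, was at 0.03 and 0.01 FPKM. The log2 ratios of *Sf1* and *Qk* were 0.20 and -0.24, and 0 of these 2 were past 2-fold.

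**Figure D4:**
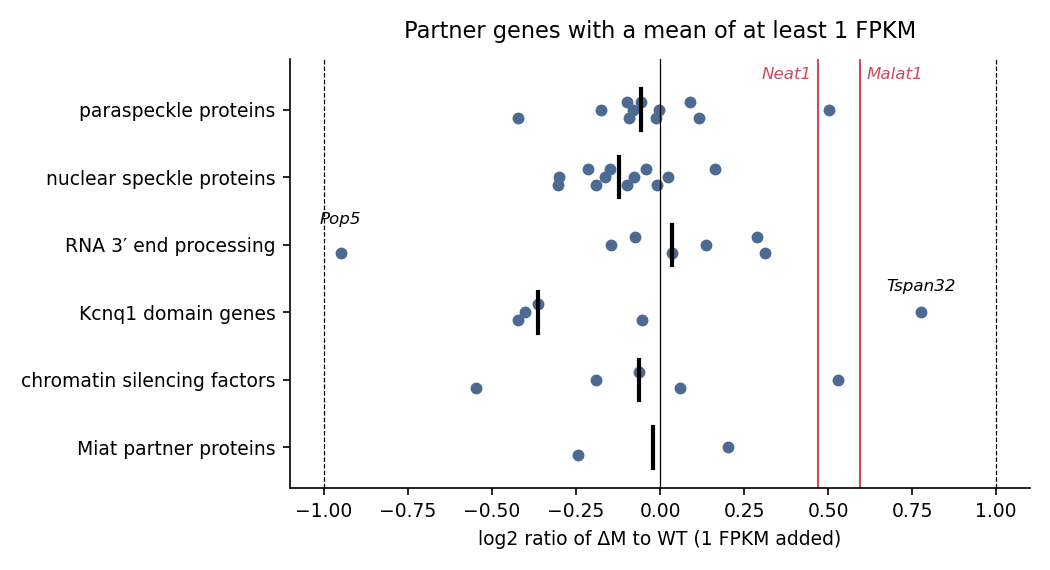
Log2 ratio of ΔM to WT (horizontal) for the reported genes of 6 lists averaging 1 FPKM or more, 1 point per gene, with the list's median as a black bar. Red lines mark *Neat1* (0.47) and *Malat1* (0.59), and dashed lines mark 2-fold. The medians of the 6 lists lie below the ratio of *Neat1*, which is above 92.3% of coding genes with a transcript of at least 300 nt.

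Other well-known long noncoding RNAs were found for 10 of 21 names, and 2 of them averaged 1 FPKM or more. *Dleu2* had 4.39 FPKM in the WT library and 5.0 FPKM in the ΔM library (log2 ratio 0.15), and *Tug1* had 2.41 and 2.31 FPKM (-0.04). Thus, *Dleu2* and *Tug1* were at levels near that of *Neat1* with ratios nearer 0, and both were far below *Malat1*. *Xist*, described above, is on the same list and was below the minimum mean through its value of 0.00 in ΔM. Its log2 ratio was -1.42.

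TTP binds AU-rich sequences with the core TATTTAT. This 7-mer occurred once in the longest transcript of *Malat1* and 0 times in those of *Neat1* and *Miat* on the sense strand. It is shown because it is the single match in the 3 RNAs, with the 7-mer in capitals.
Malat1 TATTTAT, chr19:5795722-5795748, minus strand: cacctcctacTATTTATtgaatacttt
The match started at base 6934, and 42 nt followed it in the annotated transcript. It thus lay downstream of the A-rich tract shown above, at which the mature RNA is known to end. Of 1147 protein-coding genes with a longest transcript of at least the same length, 61.6% held 1 or more matches. Of 9 such noncoding genes, 44.4% did.

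The shorter core ATTTA, which overlaps TATTTAT, occurred 12 times in *Malat1*, 21 times in *Neat1* and 4 times in *Miat*, that is 1.72, 1.01 and 0.457 per kilobase. The A and T content of the transcripts followed the same order, with 57.5%, 52.7% and 45.1%. As many matches as in *Malat1* were present in 35.7% of the 1147 coding genes of at least its length and as many as in *Miat* in 87.1% of 496. For *Neat1*, there were 9 coding genes of at least its length, and 44.4% of them held as many. The median density in coding genes of at least the same length was 1.01 per kilobase for *Malat1*, 0.562 for *Neat1* and 0.984 for *Miat*, so that *Malat1* and *Neat1* were above and *Miat* below it. In noncoding genes of at least the same length it was 1.29 for *Malat1* (9 genes) and 1.01 for *Miat* (5 genes). For *Neat1* there was 1 such noncoding gene, with 2.40 per kilobase, and *Neat1* was below it. By length, *Neat1* belongs to the noncoding sets of *Malat1* and *Miat*, and *Miat* to that of *Malat1*. The noncoding median for *Miat* equals the density of *Neat1* itself. A match is a description of the sequence and not a binding site.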

How the data were processed

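RNA-Seq controls were measured in 1 library of WT and 1 library of ΔM BMDMs. Reads were trimmed by the authors and aligned to mm9 by Segemehl. Unique matches were kept, and Cufflinks was run on the exons of Ensembl. Deposited were FPKMs with 2 decimals and 1 value per gene, 1 of them without a number in ΔM. They are not counts, and no count model was used.

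Gene types, isoforms and strands came from GENCODE M1 on NCBIM37 (mm9), which held 37039 of the 37451 identifiers. Log2 ratios were taken from values with 1 FPKM added, for genes averaging 1 FPKM or more, and 2-fold was the limit for counts. Long noncoding genes were lincRNA, antisense and processed transcript genes with a longest transcript of at least 300 nt. Depth was estimated from single-transcript genes of 400 to 1500 nt with at most 3 fragments. Of 1568 such values in WT and 1543 in ΔM, 89.4% and 90.3% were within 0.15 of a whole number of fragments. The depth and fragment length were picked to bring these values near whole numbers, so that these shares do not check them. The estimate was also run on 3 simulated libraries. They were drawn with the formula that the estimate uses, so that they cannot show how well it describes Cufflinks FPKMs. The depth and the fragment length trade off against each other, so that intervals (95%) are approximate and cover counting error only.

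Named were the members, of each list the 3 genes highest in WT and those past 2-fold, the nearest neighbours and those past 2-fold, the noncoding genes next to each member in mean FPKM, and *Zfp36*. Other genes are given as cell type markers, as ends of a range or, where so marked, after their values had been seen. Some genes of the lists and neighbourhoods are not reported here, and counts over lists and neighbours cover the reported genes alone. Members and lists were chosen with earlier results of these data known. Alternatives covered the pseudocount, the filter and the scaling. Python 3.11.15 was used with scipy 1.17.1, numpy 2.4.6, matplotlib 3.10.9 and pandas 2.3.3.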

Additional observations from a re-analysis of the deposited data

How the results depend on the processing

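*Malat1* and *Neat1* were higher in ΔM under all 6 other choices of pseudocount and scaling, with log2 ratios of 0.56 to 0.60 and 0.44 to 0.58. A pseudocount cannot change the sign of a ratio, and the scalings moved the values little. These choices therefore do not check the direction. All of these log2 ratios were within the counting intervals at the median isoform length, 0.49 to 0.69 for *Malat1* and 0.26 to 0.69 for *Neat1*. At the longest isoform the intervals of the ratio were narrower, 1.49 to 1.54 and 1.42 to 1.58 without an added FPKM. Not all of the choices lie within those. Centring on long noncoding genes was among the 6 choices and was chosen after seeing the data. *Miat* was at 0.00 without and with an added FPKM, and at -0.028 after centring on all genes and -0.029 after centring on long noncoding genes, which follows from subtracting the median. Genes at least 2-fold higher in ΔM numbered 306 at a mean of at least 10 FPKM and 100 among genes with a transcript of at least 300 nt, compared to 613. Those at least 2-fold lower numbered 130 and 111, compared to 389. With the minimum transcript length, 8941 of 10765 genes remained, and the share at least 2-fold higher fell from 5.69% to 1.12%, as most genes past 2-fold had no transcript of that length. *Malat1* was above 86.5% of genes at a mean of at least 10 FPKM and above 94.4% of genes above 0 in either library. *Neat1* was above 92.1% of the latter and below the minimum of 10 FPKM. *Miat* has no percentile, as its mean is below 1 FPKM, and the alternatives for *Kcnq1ot1* were not run, because no row has that symbol. No paired analysis was possible because each genotype has a single library, and leaving a library out would leave no comparison. Depth limits *Miat* alone of the 3 members.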
